A study of Caenorhabditis elegans with 2 samples.

Results

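The histone genes of the nematode Caenorhabditis elegans were examined for binding of ZTF-11, a transcription factor with zinc fingers that belongs to the MYT1 family. All protein-coding genes with names beginning his- were taken, 72 of 19973 coding genes on the nuclear chromosomes. A gene was counted where the summit of a ZTF-11 peak lay no more than 1000 bp from the 5' end of its gene model. At 65 of the 72 histone genes, with 18 of the 22 that had a summit among them, the model begins at the start codon, as it does at 23.3% of other coding genes. Distances at these genes therefore run from the start of the coding sequence, and where transcription starts is not in the annotation. The peaks were the 1875 of the list that the authors kept by an irreproducible discovery rate (IDR), a measure of how well 2 replicates rank the same regions. By the RefSeq product names, 69 of the 72 genes encode nucleosomal histones, with 17 for H2A, 16 for H2B, 15 for H3, 5 for H3.3 and 16 for H4. H3.3 is a replacement form, and its 5 genes include his-69, his-70 and his-74, whose products are named H3.3-like. The label core histone does not hold for the 3 genes outside these 69. The product of his-24 is a linker histone H1, and his-39 and his-73 encode short histone-fold proteins of 67 and 46 amino acids.

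The data were chromatin immunoprecipitation sequencing (ChIP-seq) of whole hermaphrodite larvae of the first stage (L1), collected 6 hours after they had been synchronized by bleaching and starvation. The worms were of strain OP511, with the genotype unc-119(tm4063) III; wgIs511, in which the integrated transgene wgIs511 encodes ZTF-11 with GFP and FLAG tags at the C-terminus. Sonicated chromatin was precipitated with an antibody against GFP, although the antibody field of the labels reads ztf-11. There were 2 biological replicates of this 1 group, so no conditions could be compared and no p-value was computed. The sources used here do not give whether untagged ZTF-11 was still made, and the age of the animals is labelled unknown. Because whole animals were used, strong binding in few cells and weak binding in many cells cannot be told apart. Signals of the 1875 IDR peaks ran from 66.2 to 1072 in the units of the authors' caller, and read depth is unknown.

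A nucleosome holds DNA around an octamer of H2A, H2B, H3 and H4, and H1 binds the linker between nucleosomes. Most histone genes of this nematode lie in clusters of near-identical copies, where an H3 gene and an H4 gene, or an H2A gene and an H2B gene, are transcribed away from each other from a short shared promoter region. Messages of the replication-type histones end in a stem-loop in place of a poly(A) tail, and they are made in quantity while DNA is replicated, whereas H3.3 can be put into chromatin outside replication. ZTF-11 is known in C. elegans for a role in neurogenesis, and the MYT1 family for zinc fingers that recognise the core AAGTT.

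The DNA between divergent histone genes is where most of the histone peaks lay, and 3 of these intervals are printed to show pairs with a summit and a pair with no region. All are on the plus strand of WBcel235 (ce11) from the RefSeq genome, written from left to right between the 5' ends of the 2 genes, without the 40 bp next to each 5' end. Capitals mark 2 short sequences on either strand, CCCCGCAG (CTGCGGGG when read on the other strand), which is described with the sequence results, and the TATA-box core TATAAA, which reads TTTATA on the other strand. The first sequence (chrIV:7488033-7488208) lies between an H4 gene and an H3 gene and the next (chrV:16042324-16042479) between an H3 gene and an H4 gene, and each held an IDR summit. The last (chrV:8895513-8895724) lies between an H2B gene and an H2A gene, comes from an interval with 4 identical copies in the genome, and held no region in any list.
his-60/his-59: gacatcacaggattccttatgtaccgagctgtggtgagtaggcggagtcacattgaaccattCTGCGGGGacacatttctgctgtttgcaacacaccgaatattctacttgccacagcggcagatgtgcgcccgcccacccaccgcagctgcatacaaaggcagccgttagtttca
his-2/his-1: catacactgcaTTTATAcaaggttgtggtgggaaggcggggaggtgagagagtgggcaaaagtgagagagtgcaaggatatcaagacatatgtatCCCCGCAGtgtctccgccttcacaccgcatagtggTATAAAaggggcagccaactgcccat
his-20/his-19: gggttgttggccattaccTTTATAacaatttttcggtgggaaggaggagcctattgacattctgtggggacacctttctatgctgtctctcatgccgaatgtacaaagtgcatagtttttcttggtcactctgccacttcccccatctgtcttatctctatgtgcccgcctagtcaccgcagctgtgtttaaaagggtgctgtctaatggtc
The whole his-60/his-59 interval has 256 bp, with its summit 115 bp from the 5' end of his-60 and 142 bp from that of his-59. The whole his-2/his-1 interval has 236 bp, with its summit 93 bp from the 5' end of his-2 and 144 bp from that of his-1.

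ZTF-11 peaks were found at 22 of the 72 histone genes (30.6%, exact Clopper-Pearson 95% interval 20.2 to 42.5), where 8.09% of all coding genes had one. Among the 69 nucleosomal histone genes the count was 21 (30.4%, 19.9 to 42.7). The intervals cover counting error only, and the genes are not independent, because they share peaks. The unit that was measured is the peak, and the 22 genes rested on 13 peaks, 0.693% of the IDR list. Of these, 9 peaks lay between a divergent pair and so counted for both genes, and the other 4 belonged to his-37, his-24, his-72 and his-42 alone. The 50 histone genes with no IDR summit fell into 2 sets. For 19 of them some region of the pooled or replicate lists, which hold 30000 regions each and include background, had its summit in range. For 31 (43.1% of the 72 genes) no region of any list did, where 29.9% of all coding genes had none.

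The histone peaks sat in the upper range of the IDR list. Their median rank was 554, against 938 for all IDR peaks, and their median signal was 155, against 107 for all IDR peaks. Of the 13 peaks, 5 were among the 187 of highest signal (9.97% of the list) and 10 among the strongest 937. In the replicates, 11 of 13 histone peaks (84.6%, 54.6 to 98.1) had a matching summit within 100 bp among the 1875 strongest regions of both replicates, against 1298 of all 1875 IDR peaks (69.2%). The exceptions were the his-35/his-41 peak, at rank 1931 in replicate 1, and the his-42 peak, at rank 15187 in replicate 2. Since the IDR list was derived from both replicates, these shares are descriptions. At each histone peak the rank in the IDR list was the same as in the pooled list. A place in the IDR list did not require a high rank in each replicate, as the his-42 peak shows. The summits of the 2 replicates were 1 to 50 bp apart at the 13 peaks, with a median of 18 bp.

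**Figure D1:**
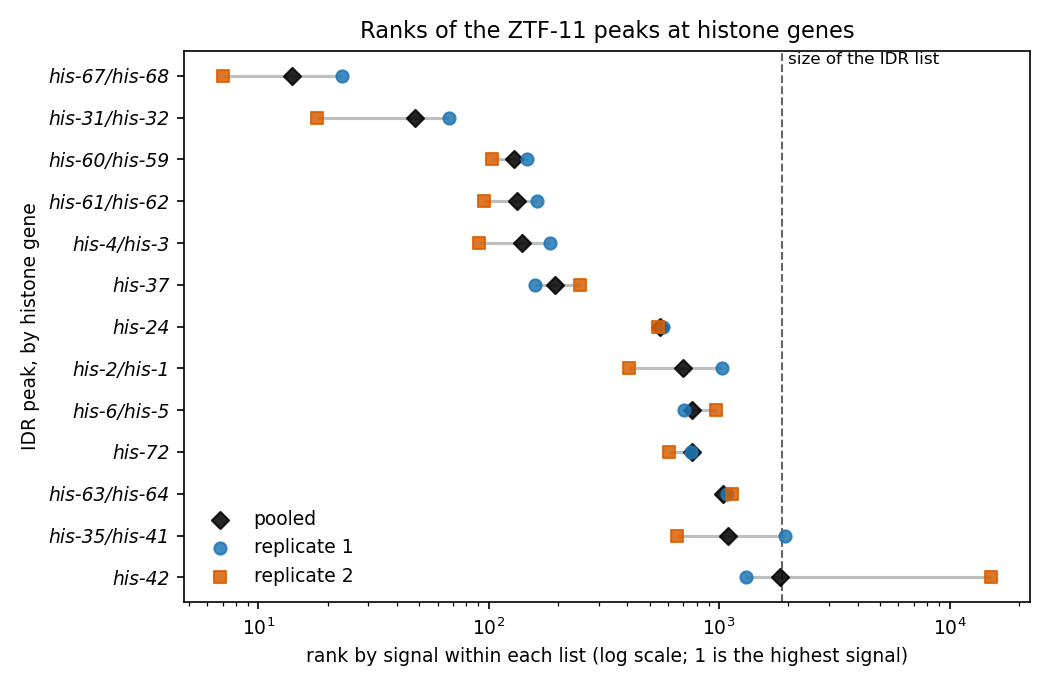
Rank of each of the 13 IDR peaks at histone genes by signal (log scale, 1 is the highest signal) in the pooled list, in replicate 1 and in replicate 2, with grey lines joining the 3 ranks of a peak. The dashed line marks the IDR list's size of 1875 peaks; the his-35/his-41 peak in replicate 1 and the his-42 peak in replicate 2 lie beyond it.

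The strongest histone peak lay between his-67 (WBGene00001941), an H4 gene, and his-68 (WBGene00001942), an H2A gene, on chromosome I from 9988788 to 9989135. Its signal was 389 in replicate 1 (rank 23) and 287 in replicate 2 (rank 7), and its pooled signal was 674 (rank 14). Signals of different lists are on different scales, so only the ranks can be set side by side. The summit was 234 bp upstream of his-67 and 135 bp upstream of his-68, and it was also 805 bp from the 5' end of alg-5, an Argonaute gene. This was the only divergent pair of an H4 gene with an H2A gene among the histone pairs, and the 2 genes form a cluster of their own. The next peak lay between his-31 (WBGene00001905, H4) and his-32 (WBGene00001906, H3) on chromosome IV from 8334002 to 8334292. Its signal was 282 in replicate 1 (rank 67) and 221 in replicate 2 (rank 18), with 493 in the pooled list (rank 48). It is the middle pair of a cluster of 6 genes, and both flanking pairs, his-29/his-30 and his-33/his-34, had no region in any list.

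Neighbouring pairs had much the same signal in the cluster of his-61, his-62, his-60 and his-59 on chromosome IV. The his-61/his-62 peak (7486240 to 7486536), at an H2A gene and an H2B gene, had signals of 203 in replicate 1 (rank 162) and 143 in replicate 2 (rank 95). At his-60/his-59 (7487985 to 7488229), an H4 gene and an H3 gene, the signal was 212 in replicate 1 (rank 147) and 139 in replicate 2 (rank 103). In the pooled list they stood at ranks 133 and 129, with signals of 344 and 348. The order of the 2 peaks differed between replicates, so the data do not separate them. The cluster of his-4, his-3, his-2 and his-1 on chromosome V differed more between its pairs. The his-4/his-3 peak (16040552 to 16040774), at an H2B gene and an H2A gene, had signals of 194 in replicate 1 (rank 184), 147 in replicate 2 (rank 91) and 335 in the pooled list (rank 139). The his-2/his-1 peak (16042194 to 16042557), at an H3 gene and an H4 gene, had signals of 63.0 in replicate 1 (rank 1034), 69.1 in replicate 2 (rank 407) and 133 in the pooled list (rank 696). The H2A/H2B peak was the stronger of the 2 in both replicates, while replicate 2 ranked the his-2/his-1 peak higher than replicate 1 did. A non-coding RNA gene, T10C6.19, started 222 bp from the his-4/his-3 summit.

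The his-35, his-41 and his-37 genes on chromosome V are 3 histone genes that all had a summit, on 2 peaks. The gene his-37 (WBGene00001911, H4) is not in a divergent pair, and its peak (9546928 to 9547092) lay 98 bp upstream of its 5' end. It had signals of 204 in replicate 1 (rank 159) and 93.5 in replicate 2 (rank 249), with 295 in the pooled list (rank 194). The his-35/his-41 peak (9545297 to 9545660) was weaker, at 41.6 in replicate 1 (rank 1931), 51.4 in replicate 2 (rank 654) and 96.7 in the pooled list (rank 1090). Its summit was 191 bp upstream of his-35 and 57 bp upstream of his-41. Both genes of this pair encode proteins of their own, his-35 among the 17 H2A genes and his-41 among the 16 H2B genes. The H2A gene his-57, which had no IDR summit, also encodes a protein of its own. Both peaks were also in range of the coding gene C50F4.6, at 915 bp for the his-37 peak and 613 bp for the his-35/his-41 peak.

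Weaker peaks lay at 2 further H3/H4 pairs, each the only pair of its cluster with an IDR summit. The his-6/his-5 peak on chromosome V (8534865 to 8535228) had signals of 84.6 in replicate 1 (rank 703), 39.8 in replicate 2 (rank 965) and 124 in the pooled list (rank 764). The his-63/his-64 peak on chromosome IV (11406824 to 11407187) had 61.6 in replicate 1 (rank 1079), 35.8 in replicate 2 (rank 1137) and 99.7 in the pooled list (rank 1038). Both replicates ranked his-6/his-5 above his-63/his-64. The his-63/his-64 summit was also 119 bp from the non-coding RNA gene F22B3.19.

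The linker histone gene his-24 (WBGene00001898) on the X chromosome had a peak (14489887 to 14490250) 25 bp upstream of its 5' end, the shortest distance of the 22 genes. Its signal was 96.1 in replicate 1 (rank 572) and 57.9 in replicate 2 (rank 545), with 155 in the pooled list (rank 554), so the replicates placed it almost equally. The summit was also 79 bp from the non-coding RNA gene M163.19 and 479 bp from M163.16. Among the 5 H3.3 genes only his-72 (WBGene00001946, chromosome III) had an IDR summit, 99 bp upstream of its 5' end, in a peak from 12368967 to 12369330. It had signals of 79.8 in replicate 1 (rank 758), 54.6 in replicate 2 (rank 604) and 124 in the pooled list (rank 765). A small nucleolar RNA gene, Y49E10.36, was 605 bp from the same summit. The other 4 H3.3 genes each had a region in the pooled list, and all 4 of these summits lay downstream of the 5' end. At his-69, his-70 and his-74 the pooled summit lay past the 3' end of the gene, and at his-71 within the gene. At his-69 the pooled rank was 2339, with ranks 2218 in replicate 1 and 4115 in replicate 2 and the summit 733 bp downstream. At his-74 the pooled rank was 2740, with ranks 2655 and 4541 in replicates 1 and 2 and the summit 809 bp downstream. The regions at his-71 and his-70 were lower, at pooled ranks 6778 and 15872, with summits 128 and 473 bp downstream. In replicate 1 the best regions in range were at rank 3534 (152 bp downstream) at his-71 and 5156 (316 bp) at his-70. Replicate 2 had its best region in range of his-71 990 bp downstream, at rank 19229, and no region at his-70. Under the 100 bp matching rule, neither that replicate 2 region nor the replicate 1 region at his-70 matches the pooled one. The 5 H3.3 genes encode 5 different proteins, whereas the replication-type H3 genes encode a single one.

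The peak counted for his-42 (WBGene00001916, H3) on chromosome II (13829359 to 13829722) was unlike the other 12. It lay 844 bp upstream of his-42, where the second-largest distance among the 22 genes was 234 bp. Its summit was 50 bp from the small nuclear RNA gene C47F8.9 and 255 bp from the non-coding RNA gene R05D7.8. The pooled signal was 67.2 (rank 1830), with 54.3 in replicate 1 (rank 1310) and 12.7 in replicate 2 (rank 15187). With a limit of 500 bp, his-42 and this peak drop out, which leaves 21 genes and 12 peaks.

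Summits lay upstream of the histone 5' ends and close to the middle of the interval between divergent genes. All 22 links between a histone gene and a summit were upstream, against 89.0% of the links of other coding genes. In 18 of the 22 the summit lay between divergent 5' ends, where it is upstream of both genes by position alone. The median distance was 143 bp at histone genes, against 257.5 bp at other coding genes. These distances start at different places, since only 11.1% of the links of other coding genes had a gene model that begins at the start codon. Measured from the start codon throughout, the medians were 143 bp at histone genes and 300 bp at other coding genes. Within the 9 pairs with a peak, intervals were 236 to 368 bp long and the summit was 3 to 67 bp from the midpoint, with a median of 17.5 bp. The nearer of the 2 genes was 57 to 158 bp from the summit and the farther 142 to 234 bp. With a shared summit at this distance, the data do not say which of the 2 genes it belongs to. The histone genes just outside 1000 bp were his-39, at 1466 bp from the nearest IDR summit, his-33 at 1571 bp, his-7 at 1668 bp and his-34 at 1825 bp.

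**Figure D2:**
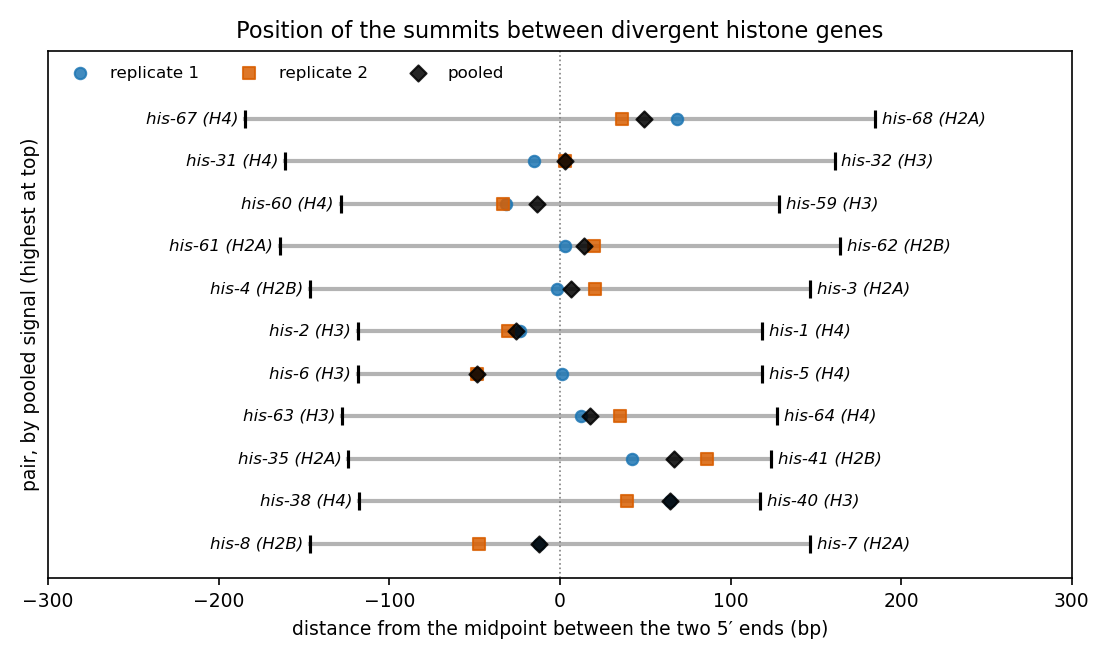
Summits between divergent histone genes, as the distance in bp from the midpoint between their 5' ends, for the 11 pairs with a region between them in all 3 lists; horizontal lines span the interval, black diamonds are pooled summits, blue circles replicate 1 and orange squares replicate 2. The top 9 pairs had an IDR summit, with pooled summits 3 to 67 bp from the midpoint; his-38/his-40 and his-8/his-7 at the bottom had none.

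Divergent pairs account for most of the histone genes, and a minority of the pairs had an IDR summit. A divergent pair was a pair of neighbouring histone genes on opposite strands, pointing away from each other, with 5' ends at most 1000 bp apart. There were 31 pairs, with 62 of the 72 genes. An IDR summit lay between the 5' ends in 9 of them (29.0%), where 18.9% of the 1745 divergent pairs of coding genes had one. By the kind of histone, 5 of 14 H3/H4 pairs, 3 of 16 H2A/H2B pairs and the 1 H2A/H4 pair had a summit. These shares take no account of intervals that are repeated in the genome, which are described next.

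The pairs split by whether their interval occurs at a single place in the genome. Of the 31 intervals, 14 had a single copy and 17 occurred in 2 to 4 exact copies. These 17 were 7 distinct sequences as cut at the 5' ends of the gene models. A summit lay in 9 of the 14 single-copy intervals and in 0 of the 17 repeated ones. By kind, summits were in 5 of 9 single-copy H3/H4 intervals, 3 of 4 single-copy H2A/H2B intervals and the 1 H2A/H4 interval. In the repeated intervals no region of the pooled or replicate lists had its summit either. Uniqueness was measured as the share of all 36-base sequences of the interval that occur at a single place in the genome, on either strand. In the 11 pairs with a region between the genes in all 3 lists, this share was 79.4% or more. In the 20 pairs with no region in any list it was 16.1% or less, and it was 0% in 17 of them. No pair had a region in some lists but not in others, and none had a share between these values. With 50-base sequences the share was 85.6% or more in the 11 pairs and 23.9% or less in the 20.

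A read that lies wholly within an exact repeat cannot be placed at a single copy by its sequence. A track of uniquely placed reads is among the files the authors list for these samples, but it is not given in the sources used here whether regions were called from such reads alone. What part sequence repetition had in the absence of regions at these 20 pairs was not tested. The repeated intervals were those of his-51/his-52, his-54/his-53, his-21/his-22 and his-20/his-19 (292 bp, 4 copies), of his-16/his-15, his-12/his-11 and his-44/his-43 (227 bp, 3 copies) and of his-14/his-13, his-10/his-9 and his-25/his-26 (272 bp, 3 copies). Others were those of his-29/his-30 and his-33/his-34 (253 bp, 2 copies), of his-50/his-49 and his-28/his-27 (238 bp, 2 copies) and of his-47/his-48 and his-66/his-65 (305 bp, 3 copies). The 283 bp interval of his-58/his-57 also has 3 copies. The his-57 model begins 22 bp before its start codon, which shortens this interval. Whether it is a cut form of the 305 bp sequence was not tested. The 3 pairs with a single-copy interval and no region were his-46/his-45 and his-55/his-56, both at 16.1% unique 36-base sequences, and his-17/his-18 at 1%.

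**Figure D3:**
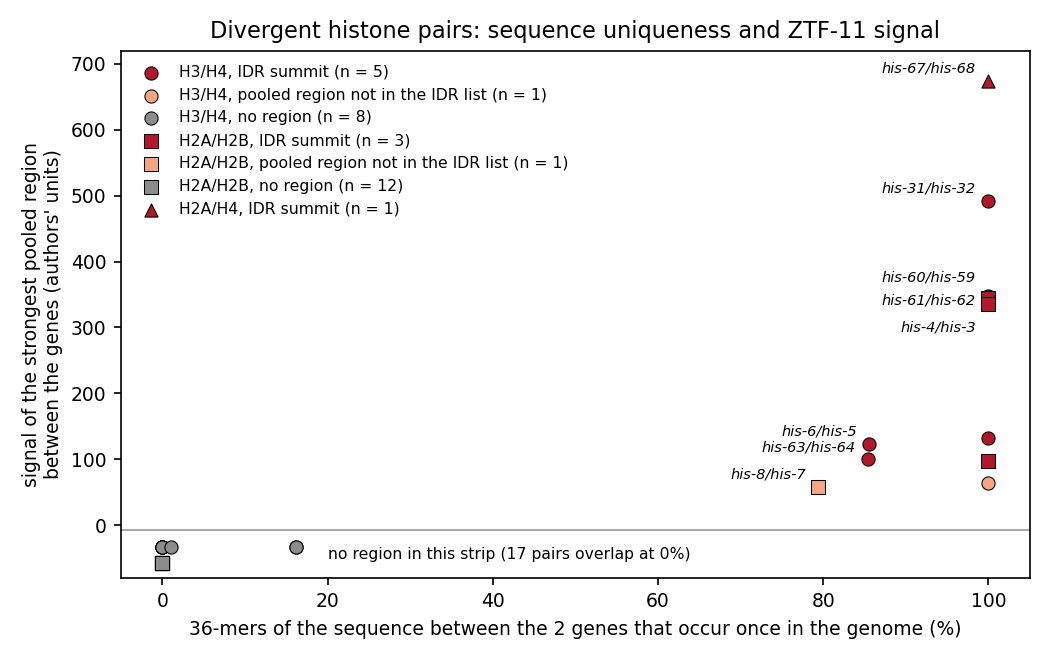
Signal of the strongest pooled region between the genes of each of the 31 divergent histone pairs (authors' units) against the share of the interval's 36-base sequences that occur once in the genome (%); circles are H3/H4, squares H2A/H2B and the triangle H2A/H4 pairs, and the strip below 0 holds pairs with no region. The 11 pairs with a region lie at 79.4% or above and the 20 without at 16.1% or below.

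Of the 11 pairs with a region between the genes, 9 (81.8%) were in the IDR list, and the other 2 fell below it in the pooled list. The first was his-38/his-40 (H4/H3) on the X chromosome, with pooled rank 1991, just past the end of the IDR list, and a signal of 63.6. It ranked 1799 in replicate 1, with a signal of 43.5, and 2453 in replicate 2, with a signal of 23.5. The second was his-8/his-7 (H2B/H2A) on chromosome V, with pooled rank 2236 and a signal of 58.4, at ranks 2497 in replicate 1 and 2680 in replicate 2. Its interval, at 79.4%, was the least unique of the 11. The nearest pooled summits were 182 bp from his-38 and 53 bp from his-40, and 134 bp from his-8 and 159 bp from his-7. These 2 pairs were thus close to the IDR threshold and their summits too lay upstream of both genes. Further down the pooled list, his-16 and his-15 had a region at pooled rank 2952 and at rank 6879 in replicate 1. Its summit was not between the genes but 485 bp downstream of the 5' end of his-16, past the 3' end of that gene. The best replicate 2 region in range, at rank 1668, had its summit 597 bp downstream, outside the 100 bp used for matching.

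Over 1000 bp on each side of the 5' end, the share of unique 36-base sequences had a median of 85.6% in the 22 histone genes with a summit (46.2 to 100%) and 18.2% in the 50 without (0 to 100%), while the median over all coding genes was 100%. In the 31 histone genes with no region in any list the median was 0% and the highest value 86.5%, at his-39. Among genes where at least 90% of the 36-base sequences were unique, 9 of 13 histone genes (69.2%) had an IDR summit, against 1481 of 17172 coding genes (8.62%). The 9 were his-37, his-24, his-72 and the pairs his-67/his-68, his-60/his-59 and his-35/his-41. Each of these pairs rested on 1 shared peak, so the 9 genes are not independent. The rest of the 13 were the H3.3 genes his-69, his-70, his-71 and his-74. None of these 13 histone genes lacked a region in all lists, whereas 26.5% of these coding genes did. Among genes with under 50% unique sequence, 1 of 41 histone genes (2.44%), which was his-42, had a summit, against 4 of 496 coding genes (0.806%). Regions were absent from all lists at 30 of these 41 histone genes and at 442 of these 496 coding genes (89.1%). The share of histone genes with a peak was thus higher in the more unique genes, and coding genes in repeated sequence seldom had a region. Within 100 bp of the summit all but 3 of the 13 histone peaks consisted of unique 36-base sequences in full, the exceptions being his-63/his-64 at 80.7%, his-6/his-5 at 80.1% and his-42 at 61.4%.

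By genomic cluster, in which neighbouring 5' ends were at most 20000 bp apart, the 72 genes formed 18 clusters and 10 of these had a peak. Every gene had a summit in 6 clusters, which were his-67/his-68, his-61 to his-59, his-35 to his-37, his-4 to his-1, and the lone genes his-72 and his-24. Some genes had one in 4 clusters, with 2 of 6 genes in his-29 to his-34, 2 of 4 in his-66 to his-64, 2 of 5 in his-8 to his-39 and 1 of 13 in his-16 to his-42. The other 8 clusters had none. Among them were the cluster of 8 genes from his-47 to his-57 on chromosome IV, that of 6 genes from his-50 to his-53 on chromosome V, and that of 8 genes from his-28 to his-18 on chromosome V. In the last 2 no gene had a region in any list, and the median share of unique 36-base sequences was 0% in both. The 3 largest clusters, of 13, 8 and 8 genes, thus had 1 peak among them.

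**Figure D4:**
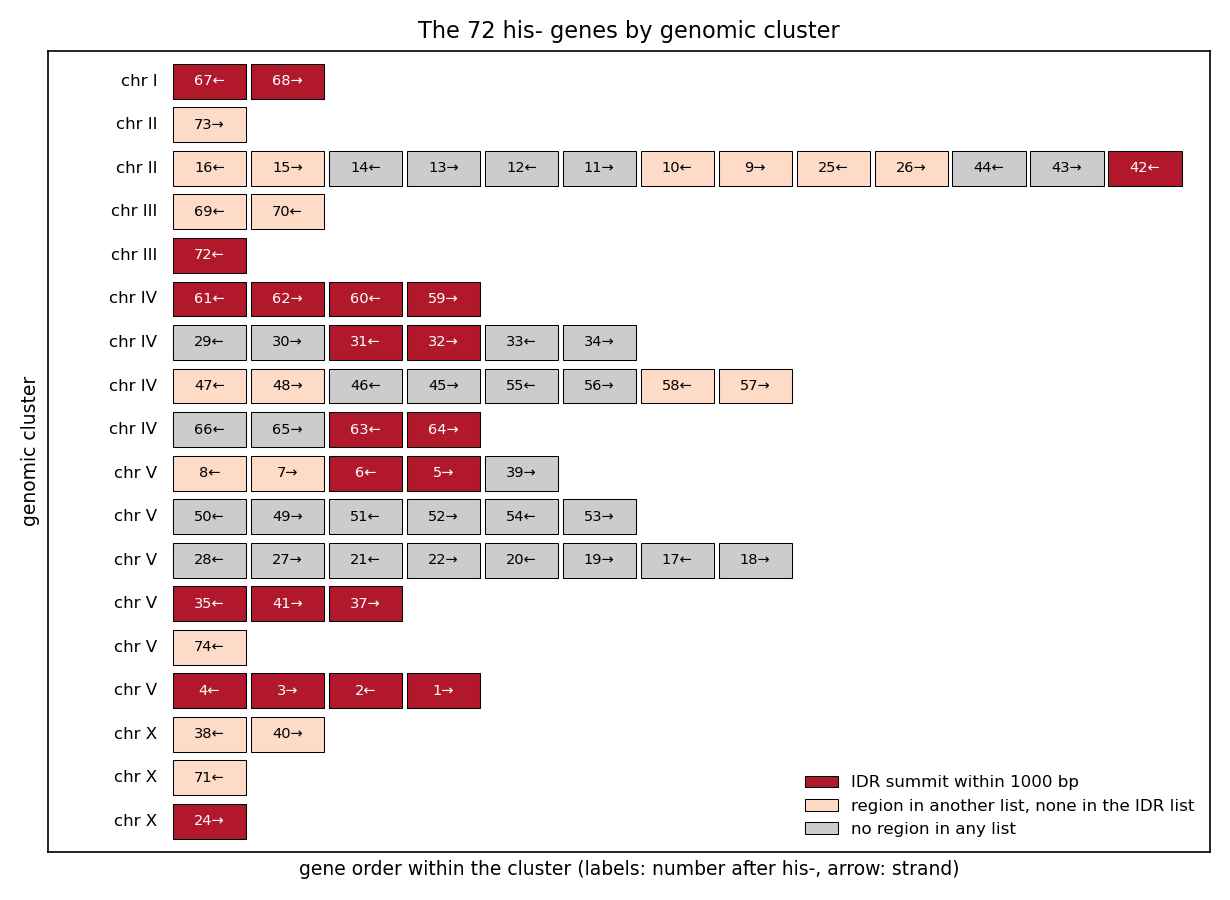
The 72 histone genes in genomic order, with each cluster as a row, the number after his- in each box and an arrow for the strand; red boxes had an IDR summit within 1000 bp of the 5' end, pale boxes a region of another list only and grey boxes no region in any list. The 22 red genes lie in 10 of the 18 clusters, and the 31 grey genes lie on chromosomes II, IV and V.

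Genes for the same protein differed in whether they had a summit. All 16 H4 genes encode 1 protein of 103 amino acids, and 7 of them (43.8%) had a summit while 6 had no region in any list. All 15 H3 genes encode 1 protein of 136 amino acids, and 6 (40%) had a summit while 6 had no region. H2A was made from 17 genes for 3 proteins, and 4 of these genes (23.5%) had a summit while 9 had no region. The most common H2A protein came from 15 genes, of which 3 had a summit (his-68, his-61 and his-3), and his-57, with the longest H2A protein at 147 amino acids, had none. H2B was made from 16 genes for 4 proteins, and 3 genes (18.8%) had a summit while 9 had no region. The 5 genes for the H2B protein of 122 amino acids had no summit. All 5 are in pairs with exactly repeated intervals, so product and repetition cannot be told apart there. The shares by class take no account of repetition, with single-copy intervals in 4 of 16 H2A/H2B pairs and 9 of 14 H3/H4 pairs.

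A short sequence was shared by most of the histone peaks. CCCCGCAG, read on either strand, was within 100 bp of the summit at 8 of 13 histone peaks (61.5%) and at 7 of the 1862 other IDR peaks (0.376%). Of all words of 8 bases, 4 were each in 8 of the 13 windows, and CCCCGCAG was picked from these as the one in the fewest other windows, where the other 3 were in 16, 19 and 20. Both counts took part in the choice and are descriptions. It is also not an independent find at each pair, since histone pairs are related in sequence. Beside it, the windows at his-31/his-32 and his-63/his-64 held it with 1 mismatch, and those at his-72, his-35/his-41 and his-42 did not hold it even so. Of the other IDR peaks, 198 (10.6%) held it with at most 1 mismatch. The sequences below show 15 bases on each side of the element at 9 of these 10 peaks, all but his-67/his-68, with the matching bases in capitals and a mismatched base in lower case, on the strand that reads CCCCGCAG, from the RefSeq genome (WBcel235, ce11).
his-60/his-59: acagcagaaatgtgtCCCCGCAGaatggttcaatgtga
his-61/his-62: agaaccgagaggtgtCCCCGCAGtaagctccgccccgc
his-4/his-3: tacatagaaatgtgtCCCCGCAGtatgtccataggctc
his-37: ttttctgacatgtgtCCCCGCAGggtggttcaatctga
his-24: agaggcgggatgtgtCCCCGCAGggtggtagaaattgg
his-2/his-1: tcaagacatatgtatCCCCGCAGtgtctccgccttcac
his-6/his-5: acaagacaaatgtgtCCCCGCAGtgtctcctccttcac
his-31/his-32: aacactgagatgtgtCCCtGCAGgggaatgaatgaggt
his-63/his-64: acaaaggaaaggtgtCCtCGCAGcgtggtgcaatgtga
The positions are chrIV:7488080-7488117 on the minus strand for his-60/his-59, chrIV:7486293-7486330 on the minus strand for his-61/his-62, chrV:16040602-16040639 on the minus strand for his-4/his-3, chrV:9546996-9547033 on the plus strand for his-37, chrX:14490024-14490061 on the plus strand for his-24, chrV:16042404-16042441 on the plus strand for his-2/his-1, chrV:8535098-8535135 on the plus strand for his-6/his-5, chrIV:8334172-8334209 on the plus strand for his-31/his-32 and chrIV:11406991-11407028 on the plus strand for his-63/his-64. The overlapping word ATGTGTCC, which runs into the element in most of these lines, was also in 8 of the 13 histone windows, against 1.02% of the other windows. The his-67/his-68 interval, not printed, held 2 copies of the exact element, and the nearest was 4 bp from the summit of that strongest histone peak. At the 8 peaks with the exact element it was 4 to 83 bp from the summit, with a median of 36.5 bp.

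The same element was also present where no region was found. It occurred in 6 of the 9 histone pairs with a summit and in 6 of the 22 pairs without one, and all 6 of those without were among the 20 pairs with no region in any list. The pair his-50/his-49 (chrV:8847745-8847902, plus strand, 2 identical copies) is printed as an example, again without the outer 40 bp, with the element and TATAAA in capitals on either strand. The pair his-38/his-40 (chrX:7309916-7310069, plus strand), just below the IDR threshold, has no copy of the element within 1 mismatch and is printed for comparison. The only other pair without such a copy was his-35/his-41, which had an IDR summit. All other histone pairs, with or without a summit, held the element within 1 mismatch.
his-50/his-49: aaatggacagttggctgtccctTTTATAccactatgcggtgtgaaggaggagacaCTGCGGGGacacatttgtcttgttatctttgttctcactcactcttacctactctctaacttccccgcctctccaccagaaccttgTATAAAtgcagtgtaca
his-38/his-40: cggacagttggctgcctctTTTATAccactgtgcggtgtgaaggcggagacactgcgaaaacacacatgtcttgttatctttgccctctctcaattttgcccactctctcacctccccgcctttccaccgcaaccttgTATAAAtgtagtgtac
Each of these intervals holds TATAAA at 2 places. Among the 11 pairs with a region between the genes, the exact element was in 6 of the 9 with an IDR summit and in 0 of the 2 without, which were his-38/his-40 and his-8/his-7. The element was picked from windows around the histone IDR summits, so these counts by pair are descriptions. The 20 pairs with no region have at most 16.1% unique 36-base sequences, so the 6 of them with the element do not show whether regions go with it.

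In promoters, from 250 bp before to 50 bp after the 5' end, CCCCGCAG was at 26 of 72 histone genes (36.1%) and at 25 of 19901 other coding genes (0.126%). It was in 14 of the 22 histone promoters with a summit (63.6%) and in 12 of the 50 without (24%). Divergent partners share much of this window, so the genes are not independent. The element was picked from windows around the summits of these same genes, so its shares in histone promoters are descriptions. For most histone genes the window is placed from the start codon, and for most other coding genes from the 5' end of a model that begins before it. Of the 468 copies in the nuclear genome, 15 were within 1000 bp of a histone 5' end, and 17 (3.63%) were within 100 bp of an IDR summit. The promoters of other coding genes that held it had an IDR summit within 1000 bp at 2 of 25 genes (8%), ufd-3 and K07C5.13, a share next to the 8.09% of all coding genes. The ufd-3 summit had the element within 100 bp, and the K07C5.13 summit did not.

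Other short motifs were counted in the same 300 bp promoters, on both strands. GGCGGG was at 38 of 72 histone promoters (52.8%), against 6.31% of other coding promoters, with 16 of the 22 that had a summit (72.7%) and 22 of the 50 that had none (44%). It shares the run GCGGG with the other strand of CCCCGCAG, but neither contains the other. TATAAA was at 65.3% of histone promoters, against 37.8% of other coding promoters, and its share was near equal in histone promoters with a summit (63.6%) and without (66%). GAGAGA was at 45.8% of histone promoters, against 21.7% of other coding promoters, and CCAAT at 54.2%, against 45.5%. CTGCGTCT was at 2.78%, against 3.54% of other coding promoters. The core AAGTT, which the MYT1 family is known to recognise, was at 23.6% of histone promoters, against 69.3% of other coding promoters. It was at 2 of the 22 with a summit (9.09%) and at 15 of the 50 without (30%). The forms TTTGAA and TTCGAA of the cell-cycle homology region, known from promoters of cell-cycle genes, were at 16.7% and 2.78% of histone promoters, against 62.7% and 18.2% of other coding promoters. These motifs differ in base composition, and how far composition sets these shares was not tested.

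Around the summits themselves, in windows of 100 bp on each side, GGCGGG was at 9 of 13 histone peaks (69.2%), against 219 of 1862 other IDR peaks (11.8%). TATAAA was at 6 of 13 (46.2%), against 13.2% of the other peaks, and GAGAGA at 6 of 13 (46.2%), against 36.8% of the other peaks. AAGTT was at 2 of 13 (15.4%), against 26.5%, and these were the his-37 and his-42 peaks. The histone windows had a median of 49.8% G and C, against 44.8% over all IDR peaks. The strongest peak, at his-67/his-68, was the only histone peak with CTGCGTCT.

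Genes that supply, place or exchange histones were set beside the histone genes, from a list of 26 genes. An IDR summit lay in range at 11 of them (42.3%), where 8.09% of all coding genes had one. The list was chosen with earlier results of these data known, so its share is a description. Among histone variants, htz-1, which encodes H2A.Z, had a summit 313 bp upstream at rank 127 (signal 349), with ranks 110 in replicate 1 and 168 in replicate 2. That peak also counted for wapl-1, a cohesin-release gene. The gene cdl-1, whose product binds the stem-loop of histone messages, had a summit 495 bp upstream at rank 668 (signal 137), with ranks 772 in replicate 1 and 659 in replicate 2, shared with ect-2. These 2 genes had peaks that both replicates ranked within the first 1875 regions.

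Of the histone chaperones, nasp-2, of the NASP family, had its summit at rank 56 but 988 bp upstream, close to the limit of distance and shared with C50B6.3. The summit at lin-53, the RbAp48 homolog, was 236 bp upstream at rank 167 (signal 311) and shared with nra-2. That at chaf-2, of the CAF-1 complex, was 226 bp upstream at rank 306 (signal 225) and shared with Y71G12B.30. Further down were hira-1, whose product places H3.3, at rank 615 and 741 bp upstream, and unc-85, an ASF1 homolog, at rank 1355 and 422 bp upstream. Of the H1-like linker genes, hil-7 was at rank 470 and 95 bp upstream, while hil-1, hil-3 and hil-2 were at ranks 1768, 1772 and 1809, near the end of the IDR list. Replicate ranks were 43 and 93 (replicates 1 and 2) at nasp-2, 216 and 112 at lin-53, 238 and 377 at chaf-2, 499 and 896 at hira-1, 1281 and 1321 at unc-85 and 481 and 527 at hil-7. The hil-3 peak was at rank 901 in replicate 1 and had no matching region in replicate 2. The hil-1 summit, 874 bp upstream, was at ranks 1966 and 1832 in replicates 1 and 2. The hil-2 summit, 46 bp downstream of the 5' end, was at ranks 2092 and 1701. Both were thus outside the 1875 strongest regions of replicate 1. No IDR summit was in range at hil-4, hil-5, hil-6, hil-8, hcp-3, cpar-1, asfl-1, chaf-1, rba-1, nap-1, nasp-1, spt-16, hmg-3, hmg-4 or xnp-1.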

How the data were processed

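ZTF-11 binding was measured by ChIP-seq in 2 biological replicates of 1 group. The deposited text files describe lists of regions called on alignments of each replicate or of both pooled, against a control, and an IDR list derived from them by the authors. Which caller and aligner were run, and at what IDR threshold, is not given in the sources used here. A region's signal is the value of the authors' caller, on a scale that differs between lists, and was used to rank regions within a list. Values of −log10 of the q-value were deposited too and used for no result. The summit offset in the authors' lists gave each summit. Lists on ce11 were used, and those on ce10 and the control library were not used here. Read depth is unknown, and how it limits weak regions cannot be given.

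Genes and 5' ends came from Ensembl release 115 (WBcel235), and names, products and sequence from RefSeq. Ensembl gives 50 names to the 72 genes, and the 22 that differ follow RefSeq symbols. Regions were matched between replicates where summits lay within 100 bp. Uniqueness counts sequences of 36 and 50 bases over the 6 nuclear chromosomes, both strands merged. Words of 8 bases were ranked by the number of histone summit windows that held them. Shares have exact Clopper-Pearson intervals. Scripts used python 3.11.15, numpy 2.4.6, pandas 2.3.3 and scipy 1.17.1, and the assignment of summits, matching and uniqueness counts were tested on simulated data. Alternatives were distances of 500 and 2000 bp, the strongest 937 peaks, either replicate alone, the nearest coding gene, any part of the region and other matching rules.

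Members, gene lists and motifs were chosen with earlier results of these data known. The text names every histone gene with an IDR summit, the other genes of their pairs and clusters, the replacement and linker variants, the members nearest outside the distance, the 5 genes without a summit with the best regions in both replicates, genes that share a peak with a member and listed supply genes with a summit. Other histone genes were named after their values had been seen.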

Additional observations from a re-analysis of the deposited data

How the results depend on the processing

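The count of 22 histone genes on 13 peaks was 21 on 12 at 500 bp, 27 on 15 at 2000 bp, 17 on 10 with the strongest 937 peaks, and 22 on 14 with any part of the region. With either replicate alone, at an equal number of regions, it was 22 to 23 genes on 13 peaks. Without replicate 2 his-38 and his-40 were added and his-35 and his-41 lost, and without replicate 1 his-15 and his-16 were added and his-42 lost. Given to the single nearest coding gene, the 13 peaks counted for 13 genes, because a shared summit then goes to 1 gene of its pair. In the whole pooled list, an alternative chosen after seeing the data, 38 genes had a region with its summit in range, on 35 regions, because that list includes background. Without his-24, his-39 and his-73, also added later, 21 genes on 12 peaks were left. The 11 peaks matched among the strongest regions of both replicates were 11 at 50 bp, 200 bp and with any overlap, and 13 in the full lists. No paired analysis was possible because there is only 1 group of samples. Unknown read depth, unknown placement of repeated reads and 2 replicates limit what can be said of genes with no region.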

Other observations

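Outside the histone genes, the sequence CCCCGCAG was within 100 bp of the summit at 7 IDR peaks. The highest was at rank 106 on chromosome II, 129 bp from the 5' end of ufd-3, a ubiquitin-fusion degradation gene. Another, at rank 650 on chromosome II, was 52 bp from the small nucleolar RNA gene F01D5.12, and a peak at rank 159 on the X chromosome was 613 bp from a transfer RNA gene. The other 4, at ranks 432, 498, 1488 and 1575, had no 5' end of any annotated gene within 1000 bp. These peaks were chosen for the sequence, so their ranks are descriptions.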
